A study of Mus musculus with 6 samples.

Results

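The 9 genes described here encode proteins through which endothelial cells start, restrain or reverse blood clotting: F3, Tfpi, Thbd, Procr, Vwf, Thbs1, Plau, Plat and Plaur. They were chosen by name, and all 9 were found among the 33006 gene symbols of the count tables. RNA was sequenced from cultured primary pulmonary endothelial cells of C57BL/6 mice in 2 groups of 3 libraries. For 6 hours, 80% confluent cells in growth medium for endothelium were exposed to 300 uM hydrogen peroxide (H2O2) or, as the control, to water. The labels do not say whether the libraries of a group came from separate cultures or animals, so the spread behind each p-value is that of these libraries and could be technical. Nor do they state how the cells were purified.

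Clotting begins when tissue factor, the product of F3, is exposed to factor VII of the blood, and tissue factor pathway inhibitor (Tfpi) blocks that step. Thrombin formed downstream binds thrombomodulin (Thbd) on endothelium, which turns it from a clotting enzyme into an activator of protein C, and the endothelial protein C receptor (Procr) holds protein C in place for this reaction. Von Willebrand factor (Vwf) tethers platelets, and thrombospondin 1 (Thbs1) is a matrix protein that binds platelets, CD47 and CD36. Clots are dissolved by plasmin, which urokinase (Plau, acting at its receptor Plaur) and tissue plasminogen activator (Plat) release from plasminogen.

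Library depth ran from 22455388 to 27618679 gene counts. H2O2 replicate 3 stood apart, since the 2 pairs of H2O2 libraries that include it differed by 9.13 and 11.7 in chi-square per degree of freedom over genes, against 1.64 to 2.96 for the other same-group pairs. Without it Thbd, Plau and Tfpi were still called higher, and Procr was called lower (edgeR adjusted p = 0.036). Endothelial markers summed to 3824 to 3955 counts per 1e6 gene counts (CPM) in controls and 4069 to 4103 CPM with H2O2, although Cldn5, a junction gene of many endothelia, had only 2 to 12 counts per library. Cdh5, VE-cadherin and the most abundant of them, averaged 1149 ± 43.6 CPM in controls and 1197 ± 11.8 CPM with H2O2 (SD, n = 3 each). It was called higher only in the 2 alternatives with the length and GC correction (adjusted p = 0.0069 and 0.0054 in edgeR's test). Of 7 endothelial markers tested, 3 were called higher in the reported fit, Pecam1, Tek and Emcn, and 0 lower, where 9.7% of all genes tested were called higher. Their log2 fold changes were 0.10, 0.17 and 0.24 (edgeR adjusted p = 0.0052, 4.4e-04 and 1.1e-06). Of 8 platelet markers, 4 had at most 3 counts in any library, and 2 of these, Gp6 and Treml1, were at 0 in all. Itga2b had 17 to 37 counts per library, Gp1ba 9 to 28 and Gp9 4 to 9. Pf4, a platelet chemokine, read 10.2 to 13 CPM in the controls against 14.4 to 14.8 CPM in the H2O2 libraries. Its log2 fold change of 0.31 (edgeR adjusted p = 0.0077) was 0.18 and not called with the length and GC correction (adjusted p = 0.14), and 0.21 without control replicate 1 (0.065). The summed platelet list was 12.8 to 14.8 CPM in controls and 17.0 to 17.2 CPM with H2O2, and its part in the values of Vwf, Thbs1, Mmrn1 and Esam, which platelets also carry, was not tested. Of 6 macrophage markers, Adgre1 (listed under its older symbol Emr1) was at 0 and Ptprc and Lyz2 had at most 1 count, whereas the lysosomal gene Cd68 averaged 159 ± 3.51 CPM in the control group and 166 ± 3.75 CPM after H2O2 (SD, n = 3 each). Cd14 read 6.31 to 7.73 CPM over all libraries and Csf1r had 7 to 25 counts, and the macrophage list summed to 164 to 170.3 CPM in controls and 170.2 to 176 CPM with H2O2. The sums of the fibroblast, mural, epithelial and mesothelial lists overlapped between the groups, with 27.9 CPM as the highest, and Msln, the most abundant mesothelial marker, had 6 to 14 counts per library. In bulk RNA, fewer cells of a type and less RNA per cell cannot be told apart.

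Promoters are shown for the gene that starts clotting, its inhibitor and the protein C receptor, because these 3 genes have entries in the RefSeq promoter table and stand on opposite sides of clot formation. The table held entries for 4 of the 9 genes, the fourth being Plaur. Each window is the 250 bases before an annotated start (RefSeq, GRCm38.p6, the assembly of mm10), on the strand of the gene. RefSeq and GENCODE M21 place some starts differently. The Procr window and the upstream Tfpi window end inside the GENCODE gene spans given below, and the downstream Tfpi window lies wholly inside. For Plaur, the bases after the RefSeq start were not found in a GENCODE transcript of the gene. Capitals mark matches, on either strand, to the TATA box (TATAAA), Sp1 (GGGCGG), EGR (GCGNGGGCG), AP-1 (TGANTCA) or the antioxidant response element (TGACNNNGC).
F3, chr3:121723287-121723536, plus strand: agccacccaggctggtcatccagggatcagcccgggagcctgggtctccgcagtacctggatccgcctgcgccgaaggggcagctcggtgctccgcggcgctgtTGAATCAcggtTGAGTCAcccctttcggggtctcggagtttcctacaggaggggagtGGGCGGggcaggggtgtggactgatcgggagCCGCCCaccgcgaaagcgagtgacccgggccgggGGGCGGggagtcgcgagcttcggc
Tfpi upstream start, chr2:84476760-84477009, minus strand: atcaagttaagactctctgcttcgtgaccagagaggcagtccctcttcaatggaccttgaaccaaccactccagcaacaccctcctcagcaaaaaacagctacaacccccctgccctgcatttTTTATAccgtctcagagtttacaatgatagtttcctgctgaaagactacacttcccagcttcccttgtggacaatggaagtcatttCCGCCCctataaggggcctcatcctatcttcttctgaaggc
Tfpi downstream start, chr2:84474175-84474424, minus strand: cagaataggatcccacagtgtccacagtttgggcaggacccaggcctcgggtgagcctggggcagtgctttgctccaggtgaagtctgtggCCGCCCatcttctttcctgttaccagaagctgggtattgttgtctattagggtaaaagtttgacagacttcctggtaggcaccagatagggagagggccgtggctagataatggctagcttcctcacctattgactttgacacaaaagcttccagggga
Procr, chr2:155750967-155751216, plus strand: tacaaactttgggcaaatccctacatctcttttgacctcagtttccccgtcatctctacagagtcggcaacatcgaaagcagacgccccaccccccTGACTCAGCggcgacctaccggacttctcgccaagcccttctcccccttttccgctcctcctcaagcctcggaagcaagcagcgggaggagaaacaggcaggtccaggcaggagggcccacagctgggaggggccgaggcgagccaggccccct

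The F3 window held 3 Sp1 matches and 2 AP-1 matches, and both Tfpi windows held 1 Sp1 match, joined at the upstream start by 1 reversed TATA box match. In the Procr window the capitals are 1 AP-1 match that is also the beginning of 1 antioxidant response element match. The window of Plaur held 3 Sp1, 1 AP-1 and 1 EGR match, the last overlapping the Sp1 matches. Among all 32851 windows of the table, Sp1 was found in 32.7%, AP-1 in 6.75%, the TATA box in 12.4%, the antioxidant response element in 10.2% and EGR in 4.7%. A match describes the letters of the window and is not evidence of binding.

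In control cells Plau and Procr had the highest length-scaled levels of the 9 genes, and F3 and Thbs1 the lowest. Per kilobase of annotated exon (GENCODE M21), the control level was 189.7 ± 4.202 CPM per kilobase for Plau and 186 ± 3.31 for Procr, whose libraries overlapped, followed by Plaur at 111 ± 2.77. Thbd at 70.2 ± 3.28 and Plat at 69.2 ± 1.83 CPM per kilobase also overlapped. Tfpi stood at 19.2 ± 0.712, and there was an 11.6-fold gap from it down to Vwf at 1.66 ± 0.153 CPM per kilobase. The lowest levels were those of F3 (0.912 ± 0.374) and Thbs1 (0.844 ± 0.0951), which overlapped (SD, n = 3 for each gene).

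With H2O2 the order of the length-scaled levels was the same for the 7 highest genes, and the pairs that overlapped at the top no longer did. Plau libraries stood at 202 to 203 CPM per kilobase and Procr libraries at 175 to 179. Thbd libraries ranged from 75.8 to 78.7 and Plat libraries from 70.5 to 75.0 CPM per kilobase. Thbs1 (0.661 to 0.717) and F3 (0.546 to 0.697 CPM per kilobase) still overlapped, with the mean of Thbs1 now above that of F3. The order in each group was the same when the longest annotated transcript was used as the length. Only for Tfpi and Vwf did that length differ from the exon length. The order within the pairs that overlapped could therefore not change, and is not checked by this.

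**Figure D1:**
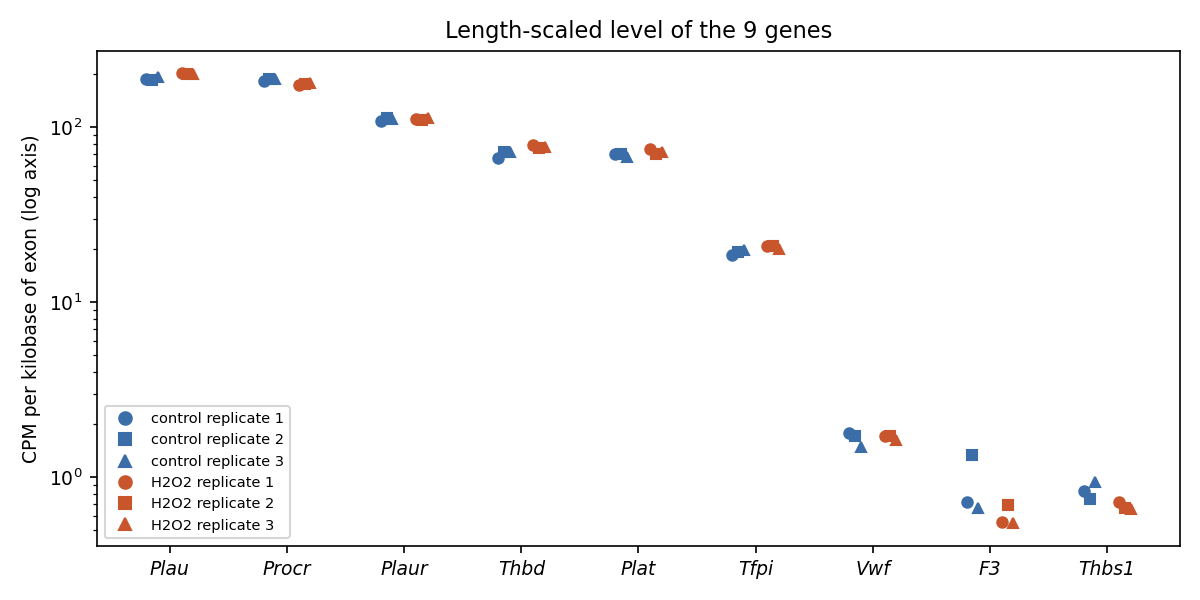
CPM per kilobase of annotated exon (log axis) of the 9 genes in each of the 6 libraries, in the order of the control means; colours mark the groups and shapes the replicates. Plau and Procr are highest, near 190 and 186 CPM per kilobase in controls, and F3 and Thbs1 reach at most 1.34 in any library.

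After H2O2, 3 of the 9 genes rose, Thbd, Plau and Tfpi, by 6.65 to 10.1%, and 0 fell by edgeR's quasi-likelihood test at an adjusted p under 0.05. Among all 12924 genes tested, 20.5% were called, 9.7% higher and 10.8% lower, and at this number of genes the count of 3 does not set them apart from that background. Counting unadjusted p-values under 0.05, 3 genes were lower (F3, Procr and Thbs1), against 16.8% of all genes lower by that rule. DESeq2's test called 0 of the 9 lower and limma-voom 1, Procr. Over all 12924 genes these tests called 1026 and 1375 lower. The median log2 fold change was 0.02 over the 9 genes and -0.0041 over all genes tested. The control and H2O2 libraries did not overlap for 6 of the 9 genes, 4 higher and 2 lower, and for 34.6% of all genes. Without control replicate 2, only Thbd was called. That fit also called fewer of all genes, 891 higher and 970 lower, against 1254 and 1395 in the reported fit. The groups also differed by a trend with exon length and GC content. At the 9 genes the trend ran from -0.04 (Thbd) to 0.05 (Plaur) on the log2 scale, H2O2 minus control. The fit corrected for it is given where it changes a call or a sign.

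**Figure D2:**
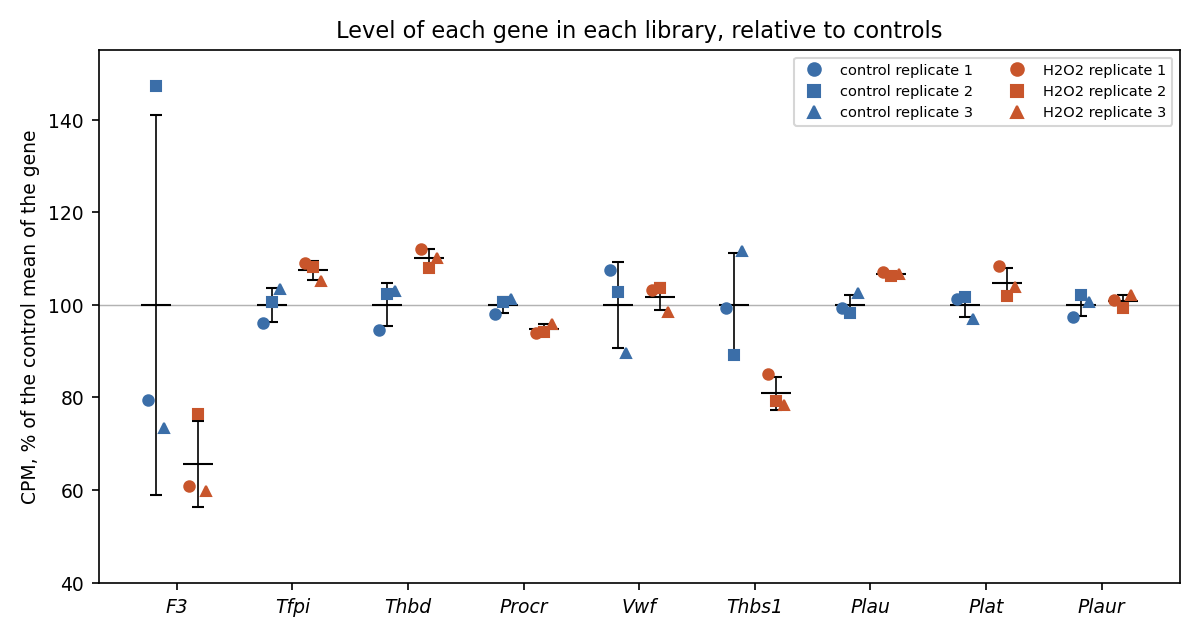
CPM of each gene in each library as a percentage of the gene's control mean; points are libraries (colour for group, shape for replicate), and black marks are the mean ± SD of 3 libraries. Thbd, Tfpi, Plau and, narrowly, Plat lie above all controls with H2O2, and Procr and Thbs1 lie below. For F3 the spread of the controls comes with 1 high library, control replicate 2.

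F3, which encodes tissue factor, was scarce in every library and did not pass the test. Its counts were 34, 64 and 28 in control replicates 1 to 3 and 27, 36 and 28 in H2O2 replicates 1 to 3, or 1.36, 2.51 and 1.25 CPM against 1.04, 1.30 and 1.021 CPM. Control replicate 2 was the highest library, and the groups overlapped. The log2 fold change was -0.62 (SE 0.259, 95% interval -1.15 to -0.08) with an edgeR adjusted p of 0.097. Without control replicate 2 it was -0.22, with an adjusted p of 0.67, against 0.051 to 0.67 over the alternatives that gave one. F3 lies on chromosome 3 at 121723537 to 121735048 (mm10, GENCODE M21).

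Tfpi, the inhibitor of the tissue factor step, rose by 7.52% (95% interval 2.12 to 13.2%). It read 97.8, 102 and 105 CPM in control replicates 1 to 3 and 111, 110.2 and 107 CPM in H2O2 replicates 1 to 3. All H2O2 libraries were above all controls, with 105 and 107 CPM as the nearest pair. In log2 terms the rise was 0.10 (SE 0.0362), with an edgeR adjusted p of 0.040. The call ended in 7 of 16 alternatives, among them DESeq2's test (adjusted p = 0.055) and a correction for exon length and GC content (0.068). Over all 16, adjusted p ran from 0.019 to 0.16. The gene lies on chromosome 2 at 84432855 to 84476775, on the minus strand. The deposited counts are per gene, so the Tfpi isoforms, and the 2 starts printed above, are not separated.

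In the protein C system, thrombomodulin and the receptor lay on opposite sides of their controls. Thbd rose from 247, 267 and 269 CPM in control replicates 1 to 3 to 293, 282 and 288 CPM in H2O2 replicates 1 to 3. Every H2O2 library was above every control. This was a rise of 10.1% (95% interval 5.09 to 15.3%), or 0.14 on the log2 scale (SE 0.0325), with an edgeR adjusted p of 0.0028, and Thbd was called in all 16 alternatives. It was the only 1 of the 9 genes called in every one of them.

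Procr read 291, 300 and 301 CPM in control replicates 1 to 3 and 279.6, 280.2 and 285 CPM in H2O2 replicates 1 to 3. All H2O2 libraries were below all controls, but the gene did not pass, with a log2 fold change of -0.08 (SE 0.0287, 95% interval -0.14 to -0.02) and an edgeR adjusted p of 0.055. It was called lower in 6 of 16 alternatives, including the length and GC correction (-0.10, adjusted p = 0.0049), and adjusted p ran from 0.0042 to 0.21. Both genes lie on chromosome 2, Thbd at 148404466 to 148408188 on the minus strand and Procr at 155751117 to 155755471 on the plus strand.

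A ratio of 2 genes' counts within a library does not depend on how libraries are scaled to each other. The Thbd to Procr ratio was 0.849, 0.893 and 0.894 in controls and 1.05, 1.01 and 1.01 with H2O2, so the groups did not overlap. Its mean was 0.878 ± 0.0258 in controls and 1.021 ± 0.0235 after the treatment (SD, n = 3 each). This ratio and those below were chosen after the values were seen and carry no test.

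Vwf, the platelet tether that endothelial cells store in Weibel-Palade bodies, showed no difference beyond its spread. It read 17.5, 16.7 and 14.6 CPM in control replicates 1 to 3 and 16.8, 16.9 and 16.01 CPM in H2O2 replicates 1 to 3, and the H2O2 libraries lay inside the control range. The log2 fold change was 0.02 (SE 0.0726), with a 95% interval of -0.13 to 0.17, which spans changes of -8.49% to 12.5%. Its edgeR adjusted p was 0.88. Vwf lies on chromosome 6 at 125546774 to 125686679 and has 9782 annotated exon bases, the most of the 9 genes.

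Thbs1 was low in both groups and lower in each H2O2 library than in each control, without passing the test. Its counts were 123, 112 and 123 in controls and 109, 108 and 106 with H2O2, or 4.90, 4.40 and 5.51 CPM against 4.195, 3.91 and 3.87 CPM. In log2 terms the difference was -0.30 (SE 0.125, 95% interval -0.56 to -0.04), with an edgeR adjusted p of 0.092 and 0.062 to 0.33 over the alternatives. The opposite-strand gene Gm29233 shares 3.20% of the exon bases of Thbs1, which lies on chromosome 2 at 118111876 to 118127133.

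Among the plasminogen activators, Plau rose and Plat did not pass. Plau, the most highly expressed of the 9 genes, read 441, 436 and 455 CPM in control replicates 1 to 3 and 476, 472 and 474 CPM in H2O2 replicates 1 to 3. All H2O2 libraries were above all controls, and they were tightly grouped, with an SD of 1.81 CPM against 9.84 CPM in controls. The rise was 6.65% (95% interval 2.51 to 10.96%), a log2 fold change of 0.09 (SE 0.0278) with an edgeR adjusted p of 0.017. Leaving out control replicate 2 ended the call (adjusted p = 0.11, against 0.0019 to 0.11 over 16 alternatives). Plau lies on chromosome 14 at 20836660 to 20843385.

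Plat read 177, 177.6 and 169 CPM in control replicates 1 to 3 and 189, 178.02 and 181 CPM in H2O2 replicates 1 to 3. The H2O2 libraries were all higher, though the nearest pair, replicate 2 of each group, nearly touched. Its log2 fold change was 0.07 (SE 0.0326, 95% interval -0.0015 to 0.13), with an edgeR adjusted p of 0.17. With the length and GC correction it was 0.09 and was called (adjusted p = 0.039, against 0.028 to 0.49 over the alternatives). Plat lies on chromosome 8 at 22757727 to 22782844.

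Plaur, which holds urokinase at the cell surface, read 162, 170.5 and 168 CPM in controls and 169, 166 and 170.4 CPM with H2O2. The groups overlapped throughout. Its log2 fold change was 0.01 (SE 0.0315, 95% interval -0.05 to 0.08; edgeR adjusted p = 0.84), which spans changes of -3.57% to 5.48%. The sign turned with the length and GC correction, where the value was -0.03. Plaur lies on chromosome 7 at 24462484 to 24475968.

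Within the urokinase pair, the counts of the enzyme stood higher against those of its receptor in each H2O2 library than in each control. The Plau to Plaur ratio of counts was 2.72, 2.56 and 2.71 in controls and 2.82, 2.85 and 2.78 with H2O2, with no overlap between the groups. For the 2 activators, Plau to Plat, the groups overlapped, at 2.46 to 2.69 in controls and 2.51 to 2.65 with H2O2.

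**Figure D3:**
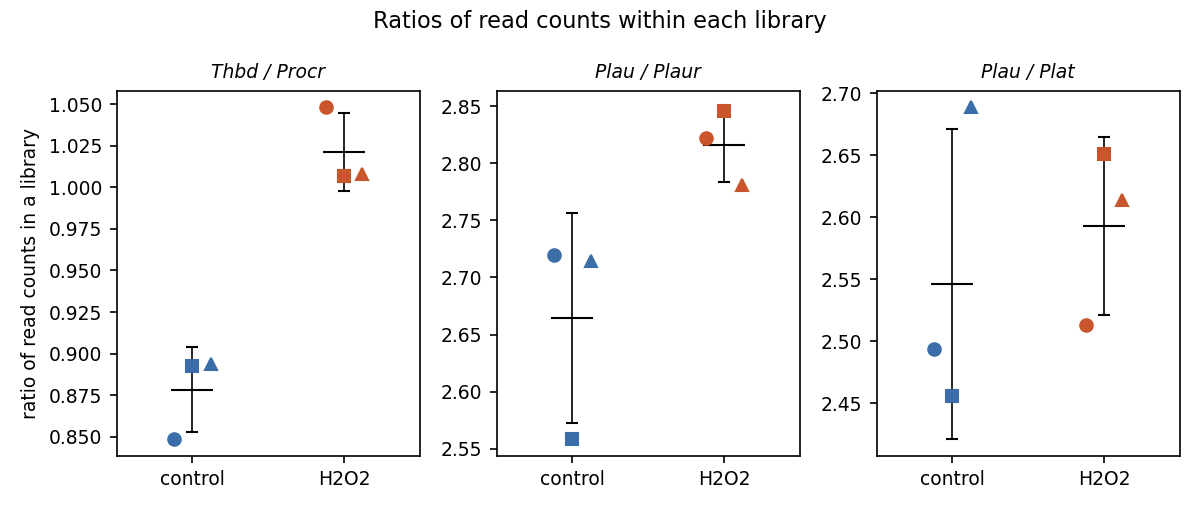
Ratios of the read counts of 2 genes within each library, one panel for each pair, with separate vertical axes that do not start at 0; points are libraries and black marks the mean ± SD of 3. Control and H2O2 libraries do not overlap for Thbd to Procr and Plau to Plaur, and overlap for Plau to Plat.

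Of 69 other genes in 6 lists of the same pathways, 37 were abundant enough to test, and 9 of those rose and 4 fell by edgeR's test, where 9.7% of all genes tested were called higher and 10.8% lower. Their median log2 fold change was 0.0085, beside -0.0041 over all genes tested. Without control replicate 2, 5 rose in place of 9, and 891 of all genes in place of 1254. The other 32 genes had too few reads for the test, and a count near 0 limits reads at this depth rather than showing that the gene is silent.

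Among 20 genes of clotting factors and of the enzymes and receptors that process them, 7 were tested and 1 was called, a fall. Mcfd2, which with Lman1 carries factors V and VIII out of the endoplasmic reticulum, fell from 124 ± 3.63 to 106 ± 1.16 CPM (log2 fold change -0.23, SE 0.0345, edgeR adjusted p = 1.9e-05; SD, n = 3 each). Its partner Lman1 stood at 303 ± 3.98 and 304 ± 4.85 CPM (log2 fold change 0.0070, adjusted p = 0.90 in edgeR's test). Of the 4 protease-activated receptors, which sense thrombin and related proteases, 2 were tested. F2rl3, which encodes the thrombin receptor PAR4, rose from 32.2, 33.1 and 35.2 CPM in controls to 37.8, 41.2 and 37.1 CPM with H2O2, by 0.21 on the log2 scale (SE 0.0526, edgeR adjusted p = 0.0050), and the groups did not overlap. F2r, which encodes the thrombin receptor PAR1, was lower in each H2O2 library than in each control, at 1.91, 2.59 and 2.19 CPM in controls and 1.501, 1.88 and 1.64 CPM with H2O2, but did not pass (log2 fold change -0.41, SE 0.193, edgeR adjusted p = 0.14).

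Among 14 anticoagulant genes, 9 were tested, 2 rose and 1 fell. Pros1, which encodes protein S, the cofactor of activated protein C, rose from 52.7 ± 1.016 to 58.5 ± 1.51 CPM (log2 fold change 0.15, SE 0.0410, edgeR adjusted p = 0.0091). Ptgis, the prostacyclin synthase, rose by 0.16 (SE 0.0502, adjusted p = 0.022 in the same test), a call that ended without control replicate 2 or without H2O2 replicate 1. Anxa5, whose protein covers the phosphatidylserine on which clotting complexes assemble, fell from 394 ± 4.80 to 355 ± 5.26 CPM (log2 fold change -0.15, SE 0.0280, edgeR adjusted p = 3.1e-04; SD, n = 3 each). Without control replicate 3 the adjusted p of Pros1 was 0.053, against 0.0049 to 0.053 over its alternatives.

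In the list of other fibrinolysis genes, 6 of 13 were tested, 1 rose and 1 fell. Anxa2, which with S100a10 forms a surface receptor for plasminogen and Plat, fell from 949 ± 16.8 to 835 ± 15.7 CPM (log2 fold change -0.18, SE 0.0270, edgeR adjusted p = 1.4e-05). Serpine2, protease nexin 1, an inhibitor of thrombin and of urokinase, rose from 36.4 ± 1.144 to 41.7 ± 1.84 CPM (log2 fold change 0.20, SE 0.0485, edgeR adjusted p = 0.0043; SD, n = 3 each). Both were called in all 16 alternatives.

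In the list of Vwf storage and platelet adhesion, 10 of 12 genes were tested, 5 rose and 1 fell, beside 20.5% of all genes called. The summed platelet markers were higher with H2O2 as well, as given above. Most of that sum was Pf4, at 11.8 CPM on average in controls and 14.6 CPM with H2O2. Itga2b and Gp1ba, the 2 other platelet markers tested, were not called (edgeR adjusted p = 0.63 and 0.43). Mmrn1, multimerin 1, a carrier of factor V, rose from 3.75, 3.46 and 3.67 CPM in controls to 5.08, 5.43 and 5.33 CPM with H2O2, by 0.54 on the log2 scale (SE 0.121, edgeR adjusted p = 0.0017). Esam, a junctional adhesion protein of endothelium and platelets, rose by 0.11 (SE 0.0288), and Cd63, a membrane protein of Weibel-Palade bodies, by 0.09 (SE 0.0292), with edgeR adjusted p of 0.0075 and 0.029. Angpt2, an angiopoietin stored in the same bodies, fell from 45.04 ± 1.15 to 37.9 ± 2.64 CPM (log2 fold change -0.25, SE 0.0502, edgeR adjusted p = 7.5e-04; SD, n = 3 each). The Cd63 call ended in 5 of 16 alternatives, including the length and GC correction, and that of Esam without control replicate 2. Of 6 further thrombospondins and thrombospondin receptors, 3 were tested and 0 passed by edgeR's test, by DESeq2's or by limma-voom, with 0 at an unadjusted p under 0.05 in edgeR's. Cd47, the most abundant, averaged 375 ± 3.84 CPM in the control group and 369 ± 5.26 CPM after H2O2.

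**Figure D4:**
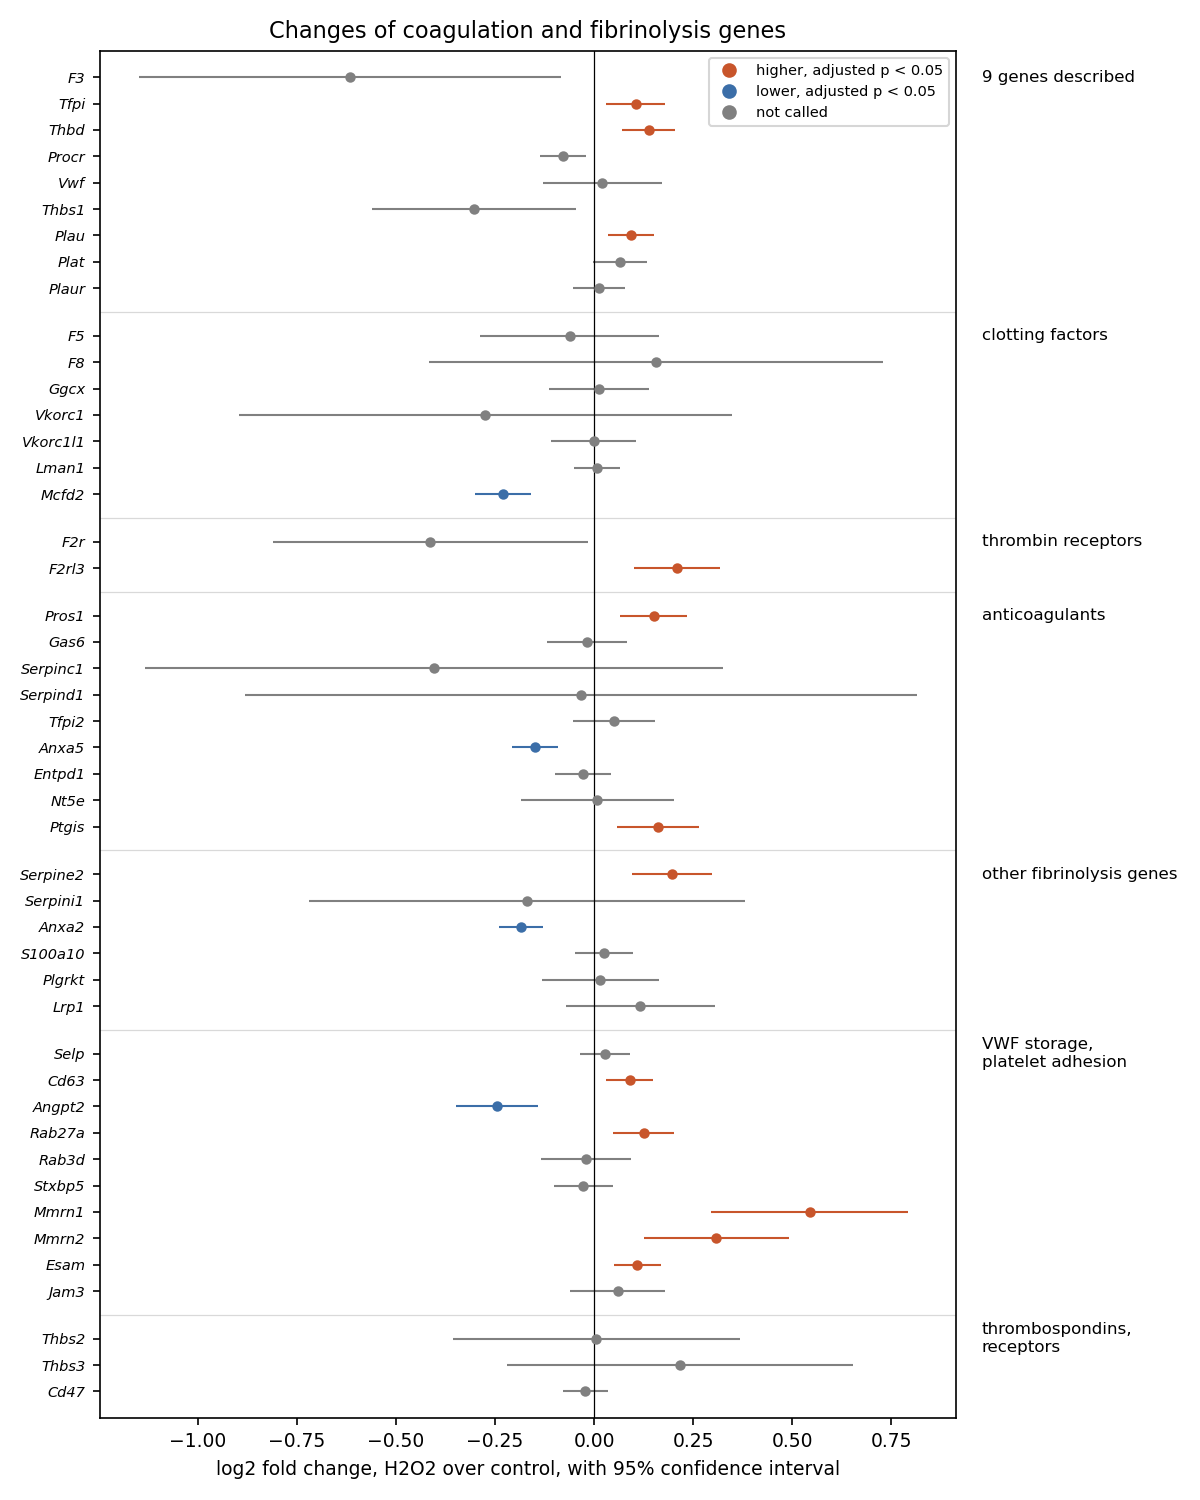
Log2 fold change (H2O2 over control) with its 95% confidence interval for the 9 genes and for the 37 tested genes of the 6 other lists; colour marks the call at an adjusted p under 0.05. The intervals of F3 and other scarce genes are wide, and those of Thbd, Plau and Tfpi lie just above 0.

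F3 had the log2 fold change of largest size in the reported fit of the 9 genes, though it was not called, and without control replicate 2 that of Thbs1 was larger (-0.38 against -0.22). Genes with the profile most similar to that of F3 over the 6 libraries were looked for among 7999 protein-coding genes outside the lists whose log2 CPM averaged 4 or more. The 3 highest correlations of log2 CPM with F3 were those of Socs3 (Pearson r = 0.993), Idh1 (0.982) and Clint1 (0.980). All 3 were highest in control replicate 2, as F3 was. Their log2 fold changes were -0.06, -0.08 and -0.05, and none passed the edgeR test (adjusted p of 0.42, 0.18 and 0.36). These correlations are over 6 libraries, with the highest picked from many, and only describe the profiles.

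**Figure D5:**
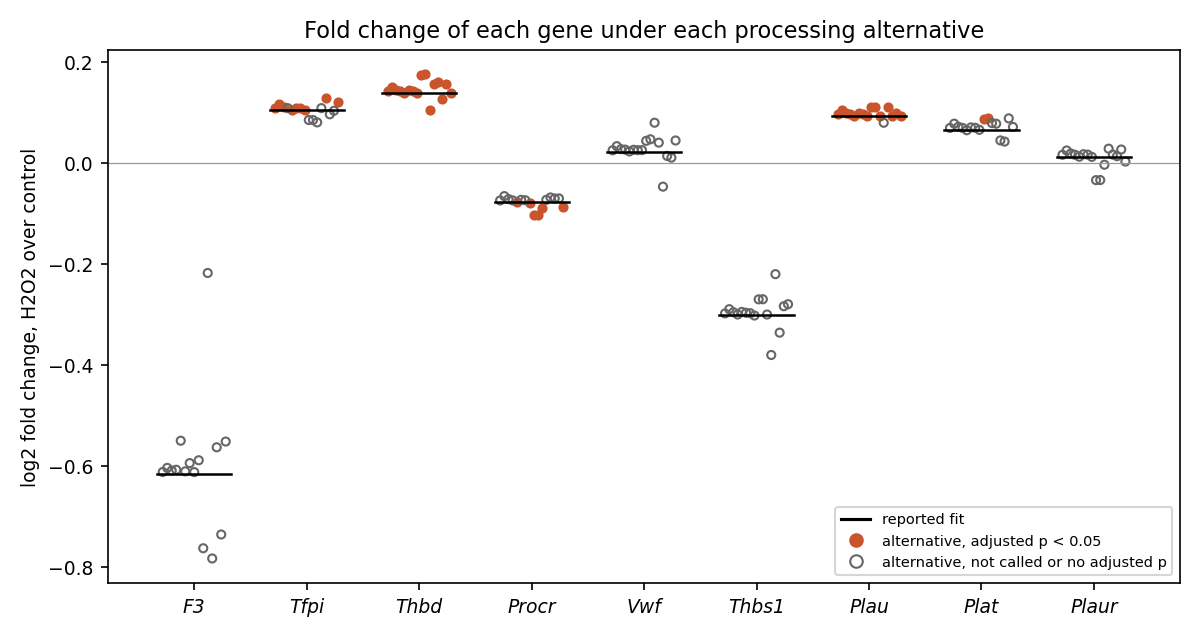
Log2 fold change (H2O2 over control) of the 9 genes in the reported fit (black line) and in each of 16 alternatives (points, or 15 for F3); filled points were called at an adjusted p under 0.05. Thbd is called in all 16, Plau in 15 and Tfpi in 9, and the F3 point nearest 0 is the fit without control replicate 2.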

How the data were processed

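mRNA libraries were made from 100 ng of total RNA of cultured cells, 3 per group. For each library the authors deposited a table of raw read counts by gene symbol. The submitters' processing notes name mm10 as the build and HTSeq, STAR 2.5.3, bcl2fastq 2.17.1.14, DESeq2 and cutadapt as the tools. The annotation and strand setting are not given in the sources used here. How reads of genes overlapping on opposite strands were assigned is therefore not known. The 5 HTSeq summary classes, 19.1 to 20.04% of the reads of a library, entered neither library sizes nor tests. The labels name no batch.

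Of 33006 genes, 12924 passed filterByExpr and were tested with edgeR 4.0.16 (quasi-likelihood test, TMM factors, treatment as the only term; R 4.3.3), with Benjamini-Hochberg adjustment over all of them and a threshold of 0.05. Fold changes are H2O2 over control. CPM values use TMM factors. All pairs of same-group libraries exceeded sampling noise, at 1.64 to 11.7 in chi-square per degree of freedom (9.13 and 11.7 with H2O2 replicate 3, at most 2.96 otherwise), so none was merged. The 16 alternatives included other scaling factors, DESeq2 1.42.0, limma-voom (limma 3.58.1), looser and stricter count filters and a replicate term. The others were a loess offset (span 0.3), alone and with that term, and fits without each library. The offset used annotated exon length and the GC content of the longest transcript, both known for 99.2% of tested genes.

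The method was tested on simulated data for this comparison, with 12812 genes tested: calls covered 6 of 50 genes with a true 1.1-fold change, 30 of 50 at 1.2-fold, 42 of 49 at 1.5-fold, 46 of 50 at 2-fold and 7 unchanged genes. The simulated counts were drawn independently for each gene, without an outlying library or a trend with length and GC content. The number of false calls in the real data may therefore be higher. Far fewer genes were changed in the simulation than were called in the real data (2649 of 12924). An adjusted p of 0.05 then stands for a smaller unadjusted p in the simulation. The recovery at each fold therefore need not hold for the real comparison.

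The genes described and all lists were chosen with earlier results of these data known. Beside the 9 genes, the text names up to 3 called genes of each pathway list by smallest p, its most abundant tested gene, the most abundant gene of each marker list, and the 3 genes most correlated with the member of largest change. Genes named outside this rule are F2r and the further marker genes, chosen after their values were seen. A further pathway gene is not reported here.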

Additional observations from a re-analysis of the deposited data

How the results depend on the processing

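Across 16 alternatives, 3 of the 9 genes were called higher except by DESeq2's test (2) and in fits that left out 1 library (1 to 3). With the length and GC offset, alone and with the block, these 3 included Plat (adjusted p = 0.039 and 0.028) in place of Tfpi (0.068 and 0.074). None was called lower in the reported fit, and 1, Procr, was with limma-voom, with the replicate block, with the length and GC offset and with both, and 0 to 1 without 1 library. Other pathway genes called higher numbered 5 to 9 without 1 library, and all genes called lower 924 to 1313 against 1395. The cause was not tested, except that fits without a library hold fewer samples. Same-numbered libraries of the 2 groups did not deviate together (r of -0.026 to 0.030), so the replicate block, which called 3 of the 9 genes higher and 1 lower, rests on a shared number only, and not every library correlated best with its own number. Signs turned only for genes not called: Vwf (-0.047 to 0.080 without 1 library), Plaur (-0.034 with the offset, also with offset and block, -0.0034 to 0.028 without 1 library), Dcn (-0.0017 by limma-voom, -0.043 to 0.047 without 1 library), Tagln (-0.0049 and -0.0068 with the offset, without and with the block, -0.15 to 0.21 without 1 library), Cd68 (-0.0051 and -0.0047 likewise) and Krt18 (-0.33 to 0.53 without 1 library). F3 had no adjusted p by DESeq2's test and was not kept by the stricter filter. F3 and Thbs1 had the fewest reads of the 9 genes, at 27 to 64 and 106 to 123 counts per library.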
